A study of Mus musculus with 3 samples.

Results

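The genes described here are 33 genes of protein folding and stress signalling in the endoplasmic reticulum (ER), measured in brown adipose tissue with and without the kinase LKB1. Members were found by the RefSeq accession of their probes, among probes well above background in at least 1 channel on all 3 arrays, and each gene was read from its brightest such probe. All 33 of the 33 listed genes were measured, out of 19344 genes and unnamed features tested. Whole brown adipose tissue, a fat depot that burns fuel to make heat, came from 10-week-old male mice on regular chow. Ad-Lkb1 mice, labelled strain C57BL/6J, were set against wild-type (WT) littermates, labelled strain C57BL/6. The gene targeted in Ad-Lkb1 mice is Stk11, which encodes LKB1, a kinase upstream of AMPK. The promoter that drives the deletion is not given in the sources used here. Each of 3 two-colour arrays held 1 Ad-Lkb1 sample in Cy5 and 1 WT sample in Cy3, and the design text calls the samples biological replicates, 3 of each genotype. Every array had the same dye orientation, so genotype, dye and strain name cannot be told apart.

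Proteins that enter the secretory pathway fold in the ER with the help of chaperones such as BiP, lectins that bind sugar chains, and enzymes that form disulfide bonds. When unfolded proteins build up, the sensors ATF6, IRE1 and PERK signal to the nucleus and to the translation machinery, a set of pathways called the unfolded protein response. Proteins that fail to fold are moved back to the cytosol and degraded, a process called ER-associated degradation (ERAD). Adipocytes fold their secreted proteins, such as adipokines and lipoprotein lipase, in this compartment.

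Of the 33 genes, 3 rose and 2 fell in Ad-Lkb1 tissue. Derl3, a membrane protein of ERAD, rose by a measured 3.33-fold, with its probe well above background in WT on only 1 of 3 arrays (log2 ratio 1.4 to 4.27 over the settings tried). Sec24d, a cargo-binding subunit of the vesicle coat that leaves the ER, rose 1.74-fold, and Hspa5, which encodes the chaperone BiP, rose 1.51-fold. The ERAD genes Derl1 and Sel1l fell, with levels 1.58-fold and 1.33-fold higher in WT. Folds come from mean log2 ratios of Ad-Lkb1 over WT within an array, normalized by loess and tested against 0 with limma, with p-values adjusted by Benjamini-Hochberg over all 19344 features and a threshold of 0.05. The 3 genes higher are 9.09% of the members, against 4.78% of all features called higher. The 2 genes lower are 6.06%, against 3.91% of all features. In either direction 5 members (15.2%) were called, against 8.68% of all features. Derl3 entered these counts through its Ad-Lkb1 level. When probes had to be well above background in both channels, Derl3 dropped out. The other 4 calls then held among 32 members, while 834 features were called higher and 750 lower. The median log2 ratio was 0.083 over the members and -0.0097 over all features. With 5 genes called, these shares describe the list and were not tested against each other. The balance of directions rested on the normalization: with median centring in place of loess, 1 member was higher and 19 lower, against 2% and 50.2% of all features, whose median moved to -0.42.

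Most members moved little. The size of the log2 ratio was under 0.25 for 20 of 33 genes, 19 ratios lay above 0 and 14 below. The levels of the 3 Ad-Lkb1 and the 3 WT samples did not overlap for 13 members (39.4%), against 36.3% of all features. A ratio of the same sign on all 3 arrays was seen for 16 members (48.5%), against 51.8% of all features, so neither share sets the members apart. At an unadjusted p under 0.05 there were 12 members (36.4%), 8 higher and 4 lower, against 29.3% of all features. The median SD between arrays was 0.174 for the members and 0.146 for all features, on the log2 scale. Just inside the threshold stood Sel1l with an adjusted p of 0.0413, and just outside stood Ppp1r15a with 0.0567 and Creld2 with 0.0588 (limma).

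**Figure D1:**
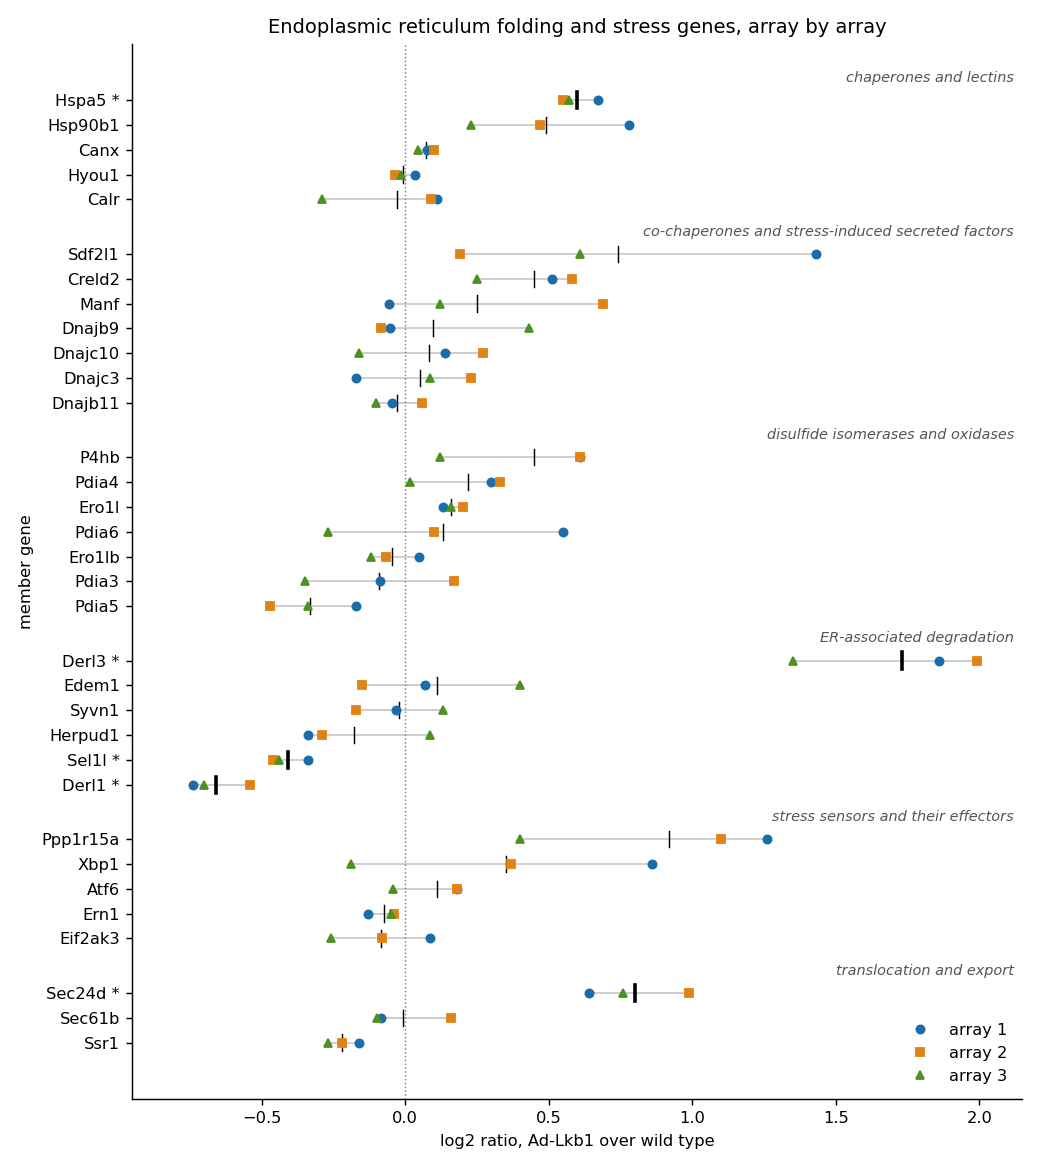
The log2 ratio of Ad-Lkb1 over WT of the 33 members on the x axis, with 1 symbol per array, a black tick for the mean and a grey line for the range; rows are genes grouped by role, and a star with a heavy tick marks an adjusted p under 0.05. Derl3, Sec24d, Hspa5, Derl1 and Sel1l carry a star, and array 3 is the lowest of the 3 points for 18 of 33 genes.

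The arrays had between 46.7% and 51.3% of non-control features well above background in a channel, and no spot was saturated. Stk11 was lower in Ad-Lkb1 tissue on every array, with log2 ratios of -1.26, -1.17 and -1.17 (mean -1.20, SD 0.0559, limma adjusted p = 0.0106), and was read from 1 probe, whose place in the gene was not analysed here. The brown fat gene Ucp1, whose product uncouples respiration to make heat, was present in both genotypes and rose by 1.48 on the log2 scale (adjusted p = 0.0115, limma). Pearson's r between the ratios of 2 arrays, taken across all features, was 0.732 for arrays 1 and 2, 0.359 for arrays 1 and 3 and 0.497 for arrays 2 and 3. Across the 33 members r was 0.81, 0.735 and 0.759 for the same pairs. These values include Derl3, which had the largest ratios (1.86, 1.99 and 1.35) and passed the filter through its Ad-Lkb1 level. The values without Derl3 were not computed. Genes of an array share its samples and dyes, so all these r values are descriptions.

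Stress-responsive ER genes are known to be activated through short promoter sequences bound by ATF6 and XBP1. Of the 33 members, 29 had an entry among the RefSeq promoters of build GRCm38.p6, which span 250 bases before to 50 bases after each annotated start. The ER stress element was searched on both strands as CCAAT, a gap of 9 bases and CCACG. It was present in the promoters of 10 of 29 members (34.5%) and of 37 of 27025 genes in the whole table (0.137%). No promoter of the other ER, secretory or chaperone lists described further on held it. A second motif, the core TGACGTGG bound by XBP1 and ATF6, was found in 1 of 29 members (3.45%), Sec24d, and in 193 genes of the table (0.714%). Each match describes letters in a window and does not show a working site.

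The windows shown are those of the called members that hold a motif (Hspa5, Derl3 and Sec24d), followed by Creld2 and by Canx, Dnajc3 and Syvn1, members with the same element and ratios near 0. All read 5′ to 3′ along the gene's own strand, with the motif in capitals. They lie at chr2:34772015-34772053 (plus strand) for Hspa5, chr10:75893232-75893270 (plus) for Derl3, chr3:123267455-123267492 (plus) for Sec24d, chr15:88819510-88819548 (plus) for Creld2, chr11:50325790-50325828 (minus) for Canx, chr14:118937817-118937855 (plus) for Dnajc3 and chr19:6046522-6046560 (plus) for Syvn1, all upstream of the annotated start.
Hspa5: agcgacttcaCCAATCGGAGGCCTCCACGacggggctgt
Derl3: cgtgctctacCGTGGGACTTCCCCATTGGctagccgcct
Sec24d: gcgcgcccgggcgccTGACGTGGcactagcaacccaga
Creld2: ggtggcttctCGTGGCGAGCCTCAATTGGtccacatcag
Canx: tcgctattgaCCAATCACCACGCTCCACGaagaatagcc
Dnajc3: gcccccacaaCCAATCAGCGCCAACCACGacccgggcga
Syvn1: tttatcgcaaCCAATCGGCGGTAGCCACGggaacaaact

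In Derl3 and Creld2 the element lies on the opposite strand, so it reads from CGTGG to ATTGG. The element of Hspa5 spans positions -65 to -47 from the start, that of Derl3 -156 to -138 and that of Syvn1 -44 to -26, and the core of Sec24d spans -26 to -19. Calr, Pdia6 and Ero1lb (Ero1b in RefSeq) held 1 element each and Hsp90b1 held 2. Among the 10 members with the element, the median log2 ratio was 0.102, the range was -0.046 to 1.73, and 2 were called, both higher (Derl3 and Hspa5). Of these, Derl3 passed the filter on dim probes through its Ad-Lkb1 level. Among the 19 matched members without it the median was 0.083, the range was -0.41 to 0.92, and 2 were called, Sec24d higher and Sel1l lower. The element was present both in members that rose and in members with ratios near 0, and the difference between the medians was not tested.

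**Figure D2:**
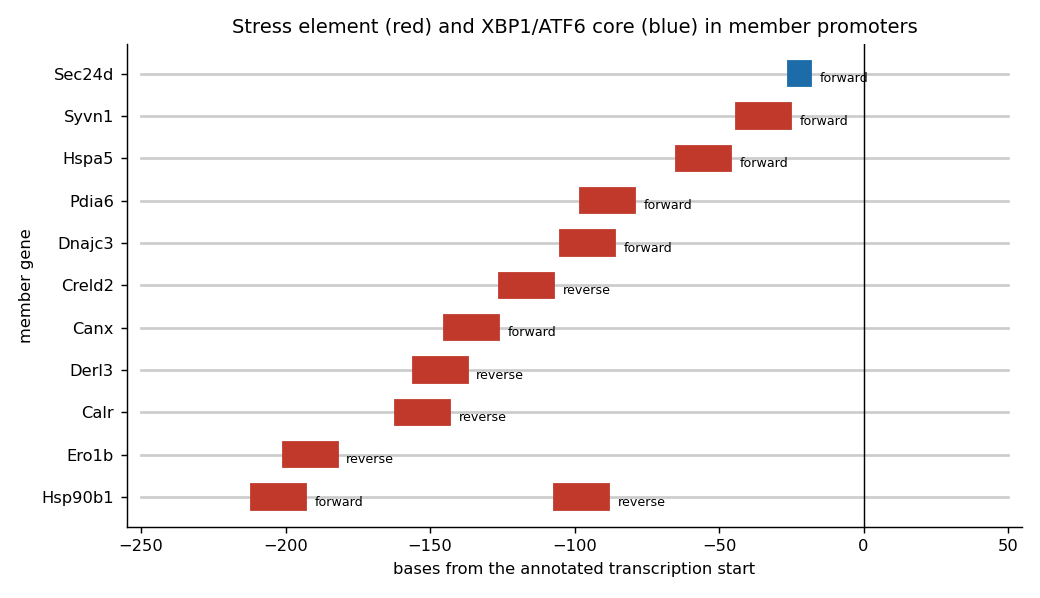
Positions of the ER stress element (red) and of the core TGACGTGG (blue) in the promoters of the 11 members that hold either, with distance in bases from the annotated start (vertical line) on the x axis and the strand of the match written beside it. Elements lie between -212 and -26, and only Hsp90b1 holds 2.

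Among the chaperones and lectins, Hspa5 stood alone past the threshold. BiP, its product, binds unfolded chains in the ER lumen and holds the stress sensors inactive. Levels are the log2 intensity of the probe in a channel after normalization, and they can be set side by side for the same probe only. Hspa5 had levels of 13.11, 13.07 and 12.84 in Ad-Lkb1 tissue on arrays 1 to 3 and of 12.44, 12.52 and 12.26 in WT. Every Ad-Lkb1 sample lay above every WT sample, and the ratios of 0.67, 0.55 and 0.57 differed little between arrays (mean 0.60, SD 0.0656, SE 0.0698, n = 3 arrays, limma adjusted p = 0.0236). With median centring in place of loess the log2 ratio of Hspa5 was -0.11 (adjusted p = 0.53, limma), while the median of all features was -0.42. The call was also lost with the software's processed signals (0.75, adjusted p = 0.0634) and the deposited value table (0.62, adjusted p = 0.0702, limma), and Hspa5 passed in 8 of 11 settings. Without array 1 or array 2 the ratio was 0.56 and 0.62 with adjusted p of 0.142 and 0.133 (limma).

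Hsp90b1 encodes GRP94, the HSP90 chaperone of the ER. Its log2 ratios were 0.78, 0.47 and 0.23 (mean 0.49, SD 0.279, limma adjusted p = 0.0847). Ad-Lkb1 levels ran from 11.76 to 12.17 and WT levels from 11.39 to 11.63, with no overlap. Under median centring the Hsp90b1 ratio was -0.22 (limma adjusted p = 0.192). Hyou1 encodes a large HSP70-like chaperone that acts with BiP, and its ratio was -0.006 with a 95% interval of -0.18 to 0.17. The lectins calnexin (Canx) and calreticulin (Calr), which hold glycoproteins during folding, had ratios of 0.073 (interval -0.10 to 0.25) and -0.029 (interval -0.31 to 0.26). The 3 ratios of Calr were 0.11, 0.091 and -0.29, so array 3 differed in sign.

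None of the 7 co-chaperones and stress-induced secreted factors passed the threshold (limma; 2 at an unadjusted p under 0.05), and their median ratio was 0.097. Creld2, a secreted factor known as a marker of ER stress, came closest. Its levels were 10.45, 10.45 and 10.34 in Ad-Lkb1 tissue and 9.93, 9.87 and 10.09 in WT. The groups did not overlap, and the log2 ratios were 0.51, 0.58 and 0.25 (mean 0.45, SD 0.175, limma adjusted p = 0.0588). Under median centring the Creld2 ratio was -0.26 (limma adjusted p = 0.176). Sdf2l1, a partner of ER DNAJ proteins, had the highest mean of this group, 0.74, and the widest spread of all members, with ratios of 1.43, 0.19 and 0.61 (SD 0.628, limma adjusted p = 0.138). Its Ad-Lkb1 levels were close together, at 8.06, 8.40 and 8.0, whereas its WT levels were 6.64, 8.20 and 7.39, so the spread lay among the WT samples.

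The secreted factor Manf had ratios of -0.055, 0.69 and 0.12 and the ER co-chaperone Dnajb9 -0.052, -0.084 and 0.43, each highest on a different array. A second probe of Dnajb9 gave a mean of 0.35, against 0.097 for the probe used. Dnajc10, a disulfide reductase of ERAD, had a mean of 0.083, and its second probe -0.053. Dnajc3, an inhibitor of PERK and co-chaperone, had 0.05, and Dnajb11, a co-chaperone of BiP, -0.03. For none of these 5 genes did the sign of the probe used hold on all arrays. The second probe of Dnajb9 was positive on all (0.26, 0.12 and 0.66), and that of Dnajc10 negative on all (-0.041, -0.014 and -0.10).

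No disulfide isomerase or oxidase passed the threshold (limma; 2 at an unadjusted p under 0.05), and the 7 ratios had a median of 0.13. P4hb, the abundant protein disulfide isomerase, had ratios of 0.61, 0.61 and 0.12 (mean 0.45, limma adjusted p = 0.102), and its Ad-Lkb1 levels of 9.28 to 9.66 lay above the WT levels of 8.92 to 9.16. Under median centring the P4hb ratio was -0.22 (limma adjusted p = 0.237). With loess Pdia5 lay on the other side, at -0.17, -0.47 and -0.34 (mean -0.33, limma adjusted p = 0.0917), also without overlap. Pdia4 had a mean ratio of 0.22 and Ero1l (Ero1a in RefSeq), an oxidase that recharges the isomerases, 0.16, both positive on all arrays. Pdia6 had 0.55, 0.099 and -0.27, and a second probe of it gave a mean of 0.23. Pdia3, which works with the lectins, had a mean of -0.09 and the oxidase Ero1lb -0.046, with signs that differed between arrays. Isomerases of the same family therefore had ratios on either side of 0.

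**Figure D3:**
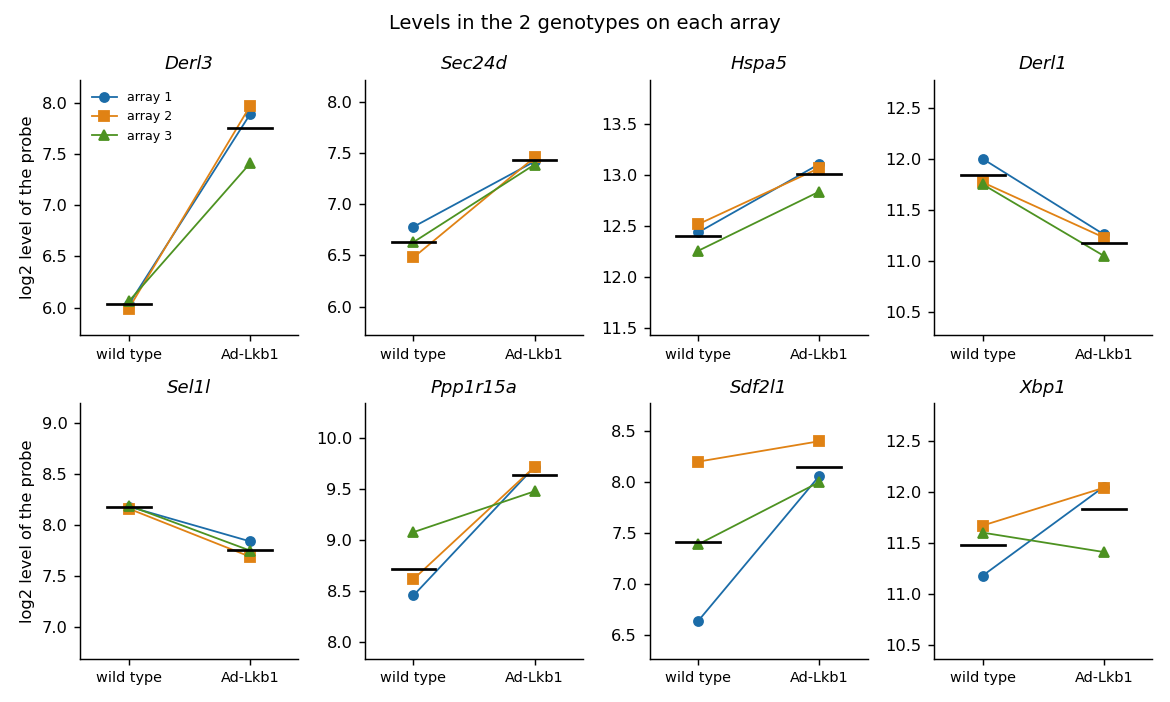
Log2 level of the probe in WT and Ad-Lkb1 tissue for 8 members, with a line joining the 2 samples of an array and a black bar at the mean of 3; every panel spans the same number of log2 units, and levels of different panels cannot be compared. For Derl3, Sec24d, Hspa5, Derl1, Sel1l and Ppp1r15a the genotypes do not overlap, whereas for Sdf2l1 and Xbp1 they do.

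The 6 ERAD genes held 3 of the 5 calls and went in opposite directions. Derl1, Derl3 and Sel1l belong to the machinery that draws misfolded proteins out of the ER, in which Sel1l is the partner of the ubiquitin ligase encoded by Syvn1. Derl3 had levels of 7.89, 7.97 and 7.41 in Ad-Lkb1 tissue and of 6.03, 5.99 and 6.06 in WT. The log2 ratios were 1.86, 1.99 and 1.35 (mean 1.73, SD 0.338, SE 0.145, limma adjusted p = 0.0143), the largest of any member. In WT the Derl3 probe was well above background on 1 of 3 arrays, against 3 of 3 in Ad-Lkb1 tissue. The ratio was 2.52 with no background subtraction and 2.68 with a normexp offset of 10, settings that change the background step alone. It was 4.27 with the software's processed signals, 4.15 with the authors' deposited table and 1.4 with median centring, and it passed the threshold in all 5 (limma). Without array 1 or array 2 it was 1.67 and 1.61, with adjusted p of 0.136 and 0.0913 (limma).

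Derl1 had levels of 11.26, 11.23 and 11.05 in Ad-Lkb1 tissue and of 12.00, 11.77 and 11.75 in WT. The genotypes did not overlap, and the log2 ratios were -0.74, -0.54 and -0.70 (mean -0.66, SD 0.102, SE 0.0759, limma adjusted p = 0.0235). A second probe of Derl1 gave -0.47, -0.38 and -0.79, with a mean of -0.55. The Derl1 ratio was -0.48 with the software's processed signals and -0.60 in the deposited value table, with adjusted p of 0.192 and 0.0846 (limma), and it did not pass without array 1 (-0.62, adjusted p = 0.142) or without array 2 (-0.72, 0.114).

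Sel1l had levels of 7.84, 7.69 and 7.75 in Ad-Lkb1 tissue against 8.18, 8.16 and 8.19 in WT. The samples of each genotype lay close together, and the ratios were -0.34, -0.46 and -0.44 (mean -0.41, SD 0.0688, SE 0.0702, limma adjusted p = 0.0413). Sel1l passed the threshold in 6 of 11 processing settings, and leaving out any single array ended the call, with adjusted p from 0.0778 to 0.207 (limma). Its partner Syvn1 had a ratio of -0.023 with an interval of -0.25 to 0.21. Herpud1, a stress-induced scaffold of the same complex, had -0.34, -0.29 and 0.085, and Edem1, which marks glycoproteins for removal, had 0.068, -0.15 and 0.40. The remaining family member Derl2, named here after its values were seen, had -0.17, -0.19 and -0.18, and its mean of -0.18 did not pass (limma adjusted p = 0.157). The 3 derlin genes thus ran from -0.66 to 1.73 in the same tissue; the differences between them were not tested.

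None of the 5 stress sensors and effectors passed the threshold (limma; 1 at an unadjusted p under 0.05). The sensors themselves had ratios near 0, with 0.11 for Atf6 (interval -0.11 to 0.32), -0.074 for Ern1, which encodes IRE1 (interval -0.25 to 0.11), and -0.084 for Eif2ak3, which encodes PERK (interval -0.33 to 0.16). Xbp1, whose messenger RNA is spliced by IRE1 to give an active transcription factor, had levels of 12.05, 12.04 and 11.41 in Ad-Lkb1 tissue and of 11.18, 11.67 and 11.60 in WT. The genotypes overlapped, and the ratios of 0.86, 0.37 and -0.19 differed in sign (mean 0.35, SD 0.524, limma adjusted p = 0.352). The value is for the Xbp1 probe as a whole, and spliced and unspliced forms were not separated.

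Ppp1r15a encodes GADD34, the phosphatase subunit that reverses the translational block set by PERK. Its levels were 9.72, 9.72 and 9.48 in Ad-Lkb1 tissue and 8.46, 8.62 and 9.08 in WT, with no overlap. The log2 ratios were 1.26, 1.1 and 0.40 (mean 0.92, SD 0.459, limma adjusted p = 0.0567). Array 3 had the highest WT level and the lowest Ad-Lkb1 level. Without array 3 the ratio was 1.18 with an adjusted p of 0.00863 (limma), and Ppp1r15a passed the threshold in 4 of 11 processing settings.

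The translocation and export genes held 1 call. Sec24d had levels of 7.42, 7.46 and 7.39 in Ad-Lkb1 tissue and of 6.78, 6.48 and 6.63 in WT. The genotypes lay apart, and the ratios were 0.64, 0.99 and 0.76 (mean 0.80, SD 0.174, SE 0.0931, limma adjusted p = 0.0236). Sec24d passed the threshold in 10 of 11 processing settings; with median centring the ratio was 0.43 (limma adjusted p = 0.0512), and without array 1 or array 2 it was 0.87 and 0.70 with adjusted p of 0.136 and 0.118 (limma). Its paralogs, named after their values were seen, had -0.16 (Sec24a), -0.20 (Sec24b) and -0.14 (Sec24c), none past the threshold. Sec61b, a subunit of the translocation channel, had -0.0082 (interval -0.23 to 0.22). Ssr1, a subunit of the complex beside that channel, had -0.16, -0.22 and -0.27 (mean -0.22, limma adjusted p = 0.121), but its other probes had means of -0.0034 and 0.12.

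The array that stood lowest differed from gene to gene, yet array 3 did so most often. The ratio was lowest on array 3 for 18 of 33 members (54.5%), against 33.6% of all features, and the median over the members was 0.075, 0.16 and 0.016 on arrays 1 to 3. Without array 3, limma called 7 members higher (Derl3, Sec24d, Hspa5, Ppp1r15a, Creld2, Hsp90b1 and P4hb) and 1 lower (Derl1), while 6.89% of all features were called higher and 3.71% lower. Without array 1 or array 2 it called no member and no feature, with 3934 and 3564 features at an unadjusted p under 0.05. Of the 11 macrophage markers measured, 10 also had their lowest ratio on array 3, and the medians of the list were 1.62, 2.21 and 0.57; their part in the members' values was not tested.

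Other genes of the ER and the secretory pathway were given by 5 lists of the same machinery. Of their 105 genes 102 were measured, and 0 rose and 3 fell (limma, adjusted p under 0.05), with 21 at an unadjusted p under 0.05. Their median log2 ratio was -0.089, with 31 above 0 and 71 below. With median centring 88 of the 102 were called lower and 0 higher, against 50.2% and 2% of all features. None was called lower with the processed signals (1 higher) or with the deposited value table (0 higher). The genes that fell were Cnpy2, a saposin-like ER protein, at -0.56 (limma adjusted p = 0.0236), the calcium-binding protein Sdf4 at -0.58 (0.0265) and Mesdc2, a chaperone of lipoprotein receptors, at -0.40 (0.0461). In the translocon, signal peptide and glycosylation list none of 26 passed (2 at an unadjusted p under 0.05), and Dad1, a subunit of the glycosylation complex, had the smallest p (ratio 0.19, adjusted p = 0.146, limma). In the list of other ERAD genes none of 15 passed (5 unadjusted); the lectin Os9 had -0.30 (adjusted p = 0.0759, limma). In the vesicle coat and cargo receptor list none of 26 passed (4 unadjusted), and Kdelr3, a receptor that returns ER proteins from the Golgi, had 0.66, 1.02 and 0.38 (mean 0.68, adjusted p = 0.0562, limma). Kdelr3 is 1 of 4 genes among 22 promoters of that list (18.2%) that hold the core TGACGTGG, as Sec24d does. The others, Copb1, Copb2 and Sec23a, had ratios of 0.074, -0.10 and -0.13. Holders of the core in the remaining lists all had ratios under 0. They were Nfe2l1 (-0.42), Ube2j1 (-0.26), Txndc5 (-0.076), Txndc11 (-0.026) and Vcp (-0.0038). In the list of other stress regulators none of 15 passed (4 unadjusted), and Creb3, a membrane-bound transcription factor, had 0.30 (adjusted p = 0.111, limma).

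Targets of ATF4 and CHOP, transcription factors that act after PERK but not after PERK alone, formed a further list. Of 22 measured genes, 10 rose and 1 fell, with a median log2 ratio of 0.47 (0.51, 0.54 and 0.42 on arrays 1 to 3). Of the 10, Mthfd2 and Fgf21 were well above background in WT on 0 of 3 arrays and entered through their Ad-Lkb1 level; among the 20 genes well above background in both channels, 8 rose and 1 fell. Gdf15, a secreted stress factor, rose by 3.64 (limma adjusted p = 0.015), Atf4 itself by 0.94 (0.0198) and the pseudokinase gene Trib3 by 1.62 (0.0214). Nupr1, a stress-responsive nuclear protein, fell by 0.69 (0.0215). Ddit3, which encodes CHOP, had 0.47, 1.02 and 1.65 and did not pass (mean 1.05, adjusted p = 0.0675, limma). With median centring the median of this list was -0.0058, with 6 genes higher and 3 lower, against a median of -0.42 over all features. Of all features 2% were then called higher and 50.2% lower.

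Chaperones of other compartments were listed too. Of 26 cytosolic chaperone genes 5 rose and none fell, with a median of 0.28 (0.39, 0.023 and 0.43 on arrays 1 to 3). With median centring the list median was -0.43, with 0 genes higher and 12 lower, against 2% and 50.2% of all features. The processed signals called 2 genes, both higher, and the deposited value table called 0. Cct5 and Cct2, subunits of the chaperonin TRiC, rose by 0.53 and 0.46 (limma adjusted p = 0.0284 and 0.0439). Hsp90aa1, which encodes an inducible HSP90, rose by 1.03 (0.0439) and the small heat shock gene Hspb8 by 0.57 (0.0445). The other listed TRiC subunits ran from -0.19 (Cct6a) to 0.38 (Cct3), and none passed. Of 16 mitochondrial chaperone and protease genes none passed (7 unadjusted), with a median of -0.021; Hspd1, the mitochondrial chaperonin, had 0.64 (limma adjusted p = 0.0504). With median centring 13 of the 16 were called lower, against 50.2% of all features, and the list median was -0.71. With median centring the 5 ER and secretory lists had medians from -0.79 to -0.62, and with the processed signals from -0.021 to 0.086. Differences between these lists and the 33 members were not tested.

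**Figure D4:**
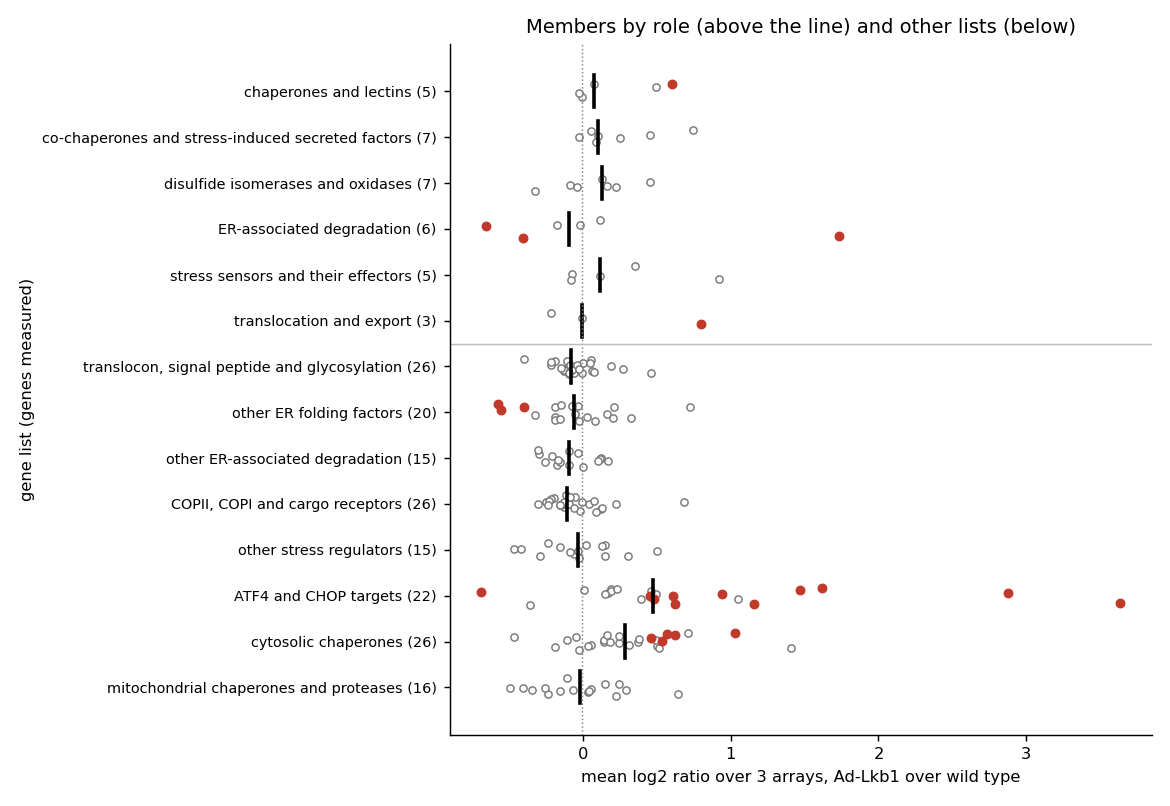
Mean log2 ratio over 3 arrays of every measured gene, with the 6 roles of the members above the grey line and 8 other lists under it; filled red points passed the adjusted p of 0.05, black bars are medians, and numbers in brackets count measured genes. The 5 other ER, secretory and stress regulator lists have medians from -0.11 to -0.039, whereas the ATF4 and CHOP targets have a median of 0.47.

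In bulk tissue, fewer cells of a type and less RNA per cell cannot be told apart, and markers of other cells differed between the genotypes. Of 11 macrophage markers 5 rose, among them Cd68 by 2.24 and Emr1 by 1.88, with 9 ratios above 0 and 2 below (Itgam and Cd14). The mean level of the list was 7.87 to 8.86 in WT and 9.46 to 9.61 in Ad-Lkb1 tissue. Of 12 fibroblast and matrix markers 9 rose, among them Col3a1 by 1.17 and Lum by 1.5, with 11 ratios above 0 and 1 below. Mean levels of that list were 9.68 to 9.94 in WT and 10.61 to 10.65 in Ad-Lkb1 tissue. With median centring the counts were 4 higher and 2 lower for macrophage markers and 2 higher and 1 lower for fibroblast and matrix markers. In that setting 2% of all features were called higher and 50.2% lower. Plasma cells are known for their abundant ER. Of 9 B and plasma cell markers 4 were measured and none passed (1 unadjusted). With the processed signals, the deposited value table, no background subtraction, an offset of 10 or an intensity trend, 1 was called higher. Median centring called 0. The list median was 0.20 with loess, 0.93 with the processed signals and 0.81 with the deposited value table. Mean levels of the 4 were 6.30 to 6.54 in WT and 6.42 to 7.05 in Ad-Lkb1 tissue. Mzb1, Tnfrsf17, Pou2af1 and Cd79a were among those that did not pass the filter on dim probes. Igj, the joining chain of secreted antibody, had 0.45, 2.09 and -0.11, and Sdc1 had a mean of 0.44 (limma adjusted p = 0.054). All 4 measured markers had their lowest ratio on array 3, against 33.6% of all features. Derl3, at 1.86, 1.99 and 1.35, was also lowest there. The part of these cells in the Derl3 value was not tested.

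Of 11 brown adipocyte markers 5 rose and 1 fell, with 7 ratios above 0 and 4 below. Dio2, the enzyme that activates thyroid hormone, rose by 2.07. The marker that fell was Adrb3, with a ratio of -1.0 (limma adjusted p = 0.0284). Mean levels of the list were 11.95 to 12.22 in WT and 12.45 to 12.62 in Ad-Lkb1 tissue. With median centring 2 were higher and 4 lower, and in that setting 2% of all features were called higher and 50.2% lower. Of 9 general adipocyte markers none passed (5 unadjusted); Cfd had -1.59 and Fabp4 0.48, and mean levels were 13.13 to 13.27 in WT and 12.83 to 13.02 in Ad-Lkb1 tissue; with median centring 7 of the 9 were called lower. Endothelial markers had mean levels of 8.34 to 8.57 in WT and 8.27 to 8.41 in Ad-Lkb1 tissue, with Kdr lower by a ratio of -0.42 and Vwf higher by 0.40; with median centring 5 of 7 were lower and none higher. Skeletal muscle markers, 4 of 8 measured and none past the threshold (0 unadjusted), had median ratios of -3.31, 2.35 and 4.08 on arrays 1 to 3. The part of any of these cells in the members' values was not tested.

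The share of features called higher among all called was 55% with loess. That share was 3.83% with median centring, 79.3% with the processed signals of the software, 65.3% with the deposited value table and 66.8% when the offset was 10. The shift of a member under median centring ran from -0.71 to -0.14 (Hyou1), and the sign of 15 of 33 ratios turned. Members were brighter than most features, with a median log2 intensity of 9.26 against 7.64 for all features. The part of brightness in the shift was not tested. In every setting with all 3 arrays Sec24d, Ppp1r15a and Sdf2l1 had ratios above 0, and Derl1, Sel1l, Pdia5, Ssr1, Herpud1 and Ern1 had ratios under 0. Derl3 had ratios above 0 in the 10 of 11 such settings that measured it, and it dropped out with the both-channel filter. Of the 5 called members, Hspa5 alone changed sign in a setting.

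**Figure D5:**
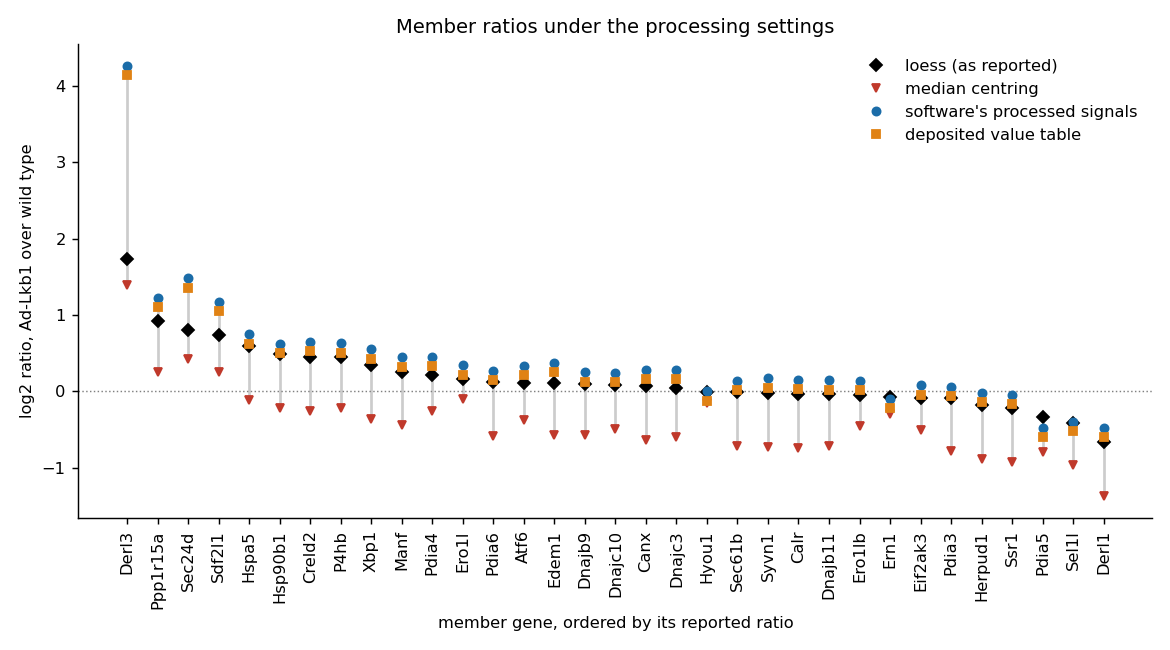
Log2 ratio of each member, ordered by its reported value, with loess (black), median centring (red), the software's processed signals (blue) and the deposited value table (orange); grey lines join the lowest and highest of the 4. Derl3 spans 1.4 to 4.27, and median centring lies under loess for every member.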

How the data were processed

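Median spot and background intensity values of both dyes were deposited as scanner output of Agilent Feature Extraction 11.5, per the submitters' processing notes. The deposited files and value table also hold the software's log10 ratio of Cy5 over Cy3, per the file headers; the table matched the scanner ratio with r = 1.0 (largest difference 0.0049), so its scale, centring and direction were known. In R 4.3.3 with limma 3.58.1, medians were background-corrected (normexp, offset 50) and loess-normalized within arrays. Control and outlier spots were dropped, spots of a probe averaged, and 25048 of 55681 probes kept, those that rose well above background in 1 channel or both on every array. The brightest kept probe stood for a gene. Levels were taken after Aquantile normalization between arrays. RefSeq accessions named 28026 of 29796 probes (GRCm38.p6).

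The log2 ratio was fitted with lmFit and eBayes, intercept only. Alternatives changed the normalization, background, filter, probe rule, source, variance prior and threshold, or left out an array. All arrays shared 1 slide and 1 scan. Every member was named, with the called genes of each other list, up to 4, or otherwise the gene of smallest p, and up to 2 per marker list. Further genes were named after their values were seen. Members and lists were chosen with earlier results of these data known. The procedure was tested on simulated data. Protein sequences were not analysed here. The number of arrays, 3, limits the precision.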

Additional observations from a re-analysis of the deposited data

How the results depend on the processing

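Scale normalization between arrays, no filter on dim probes for the members, both-channel filtering and the mean of a gene's probes left the counts of members called within 1.5 times of 3 higher and 2 lower; Derl3 could not be fitted with the both-channel filter. Median centring gave 1 member higher, 19 lower, 10096 features called and a member median of -0.49 (all features -0.42). It turned the sign of 15 of 33 ratios. Hspa5 went to -0.11, Canx to -0.64, Dnajb9 to -0.57, Dnajc3 to -0.60 and Dnajc10 to -0.49. Pdia6 went to -0.58, Edem1 to -0.57, Atf6 to -0.38, Manf to -0.44 and Xbp1 to -0.36. Hsp90b1 went to -0.22, Creld2 to -0.26, P4hb to -0.22, Pdia4 to -0.25 and Ero1l to -0.095. The software's processed signals called 0 members lower (13 members at an unadjusted p under 0.05) and 1115 features, with a member median of 0.27. The deposited value table called 0 lower (10 members unadjusted) and 815 features. No background subtraction, an offset of 10, and an intensity trend with a robust prior each called 1 lower. Without the dim filter 1033 features were called. At a threshold of 0.10 there were 6 members higher and 3517 features. Leaving out 1 array gave 0 to 7 members higher, 0 to 1 lower and 0 to 2050 features (limma); without array 1 or 2 the counts of 0 stood beside 9 and 8 members at an unadjusted p under 0.05. The cause of these differences was not tested. The ratio is taken within an array, so the reported test is paired and no further block was fitted. Low signal over background limits dim genes such as Derl3 in WT, where the median green signal was 51 to 53.5 over a background of 43 to 44.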
